A study of Drosophila melanogaster with 30 samples.

Results

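Adult Drosophila melanogaster heads in which neurons overexpressed Bchs were compared with heads that carried the UAS transgene without a driver, using 10 RNA-seq libraries, 5 in each group, of the 30 in the series. The overexpression flies had the genotype nSyb-Gal4/UAS-bchs::HA, in which the pan-neuronal driver nSyb-Gal4 switches on a bchs transgene with an HA tag, and the UAS control flies had the genotype UAS-bchs::HA/+. The heads came from flies 22 to 31 h after eclosion, and the sex, the time of day and the number of heads per sample are not given in the sources used here. The libraries were taken by their labels, and no measured value chose them. The groups differ in the driver as well as in overexpression, so levels in the 5 nSyb-Gal4/+ driver controls of the same dataset are given beside many results. The overexpression libraries enter both comparisons, which are therefore not independent.

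Bchs (Blue cheese) is the fly counterpart of human WDFY3, also called ALFY, a very large BEACH domain protein that links ubiquitinated protein aggregates to the forming autophagosome. Autophagy encloses cytoplasm in a double membrane and delivers it to lysosomes, and flies without Bchs accumulate ubiquitinated aggregates in the nervous system and have shortened adult lives. In the Gal4/UAS system the driver supplies a yeast transcription factor and the UAS line supplies its target, so the transgene is transcribed when both are present.

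The transgene target was checked before any other gene. Per library, bchs (FBgn0043362, 2L:5907169-5922776, plus strand, in the Ensembl annotation of BDGP6.54) had 405, 577, 424, 305 and 429 CPM (counts scaled to library size) in overexpression heads, against 83.2, 88.1, 103.70, 81.4 and 99.984 CPM in UAS control heads. The groups did not overlap, as for 8.98% of all tested genes with overexpression above, and the difference was called (log2 fold change 2.23, SE 0.15, adjusted p = 3.6e-08). Adjusted p here and below is the Benjamini-Hochberg value of edgeR's quasi-likelihood test over all genes tested. A two-sided exact permutation test of log2 CPM gave p = 0.00794, the smallest that 5 against 5 libraries allow. The nSyb-Gal4 controls had 98.2, 105, 128, 82.9 and 94.6 CPM, close to the UAS controls. Reads of the transgene and of the endogenous gene are not told apart in these counts, and 1 other gene overlaps a bchs exon.

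The white gene w, of which transgenes often carry a mini copy, had 37.3, 44.6, 38.9, 36.0 and 39.5 CPM in overexpression heads, against 5.98, 5.98, 5.98, 5.95 and 6.17 CPM in UAS control heads. The nSyb-Gal4 controls lay between, at 15.1, 15.6, 16.3, 15.6 and 17.2 CPM. No library overlapped another group for w, and w was 2.71 higher on the log2 scale than in UAS control heads (SE 0.059, adjusted p = 2.1e-15). The driver's own gene nSyb, which encodes neuronal synaptobrevin, differed less, with 1551, 1538, 1646, 1481 and 1564 CPM in overexpression heads and 1242, 1418, 1273, 1183 and 1525 CPM in UAS control heads. It was called (log2 fold change 0.23, SE 0.071, adjusted p = 0.0182), but UAS control 5 reached the overexpression range, and the call was lost without UAS control 1.

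**Figure D1:**
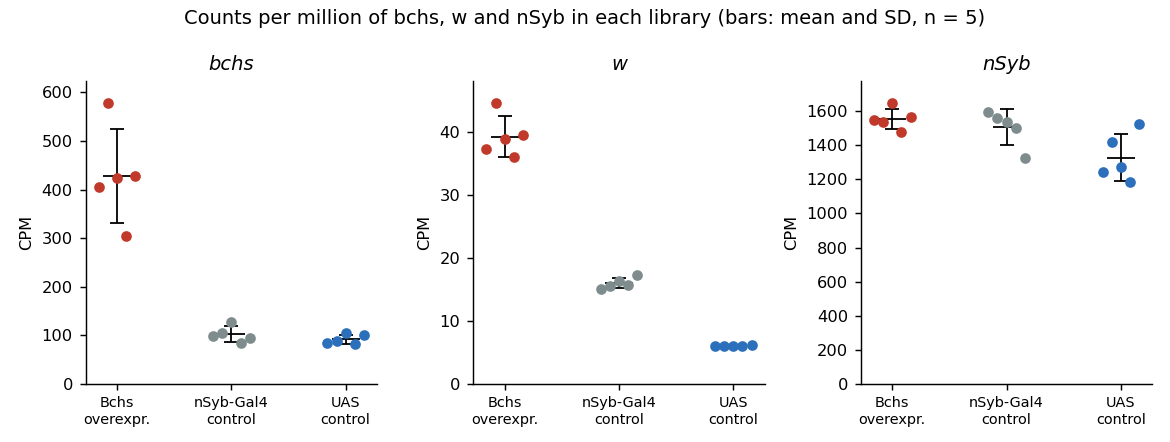
CPM (y axis) of bchs, w and nSyb in each library of the 3 groups (x axis), with points for libraries and bars for the mean and SD of 5. For bchs and w all 5 overexpression libraries sit above all 5 UAS control libraries, and for nSyb UAS control 5 reaches the overexpression range.

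Counts in genes ranged from 45649780 to 56835531 over the 10 libraries. The libraries of the UAS control were not alike in one respect that bears on many results, the share of counts in the mitochondrial genome. That share was 8.88, 8.52, 9.34, 7.86 and 8.32% in overexpression libraries 1 to 5, against 1.98, 5.30, 1.55, 1.85 and 9.97% in UAS control libraries 1 to 5. UAS control 5, and partly UAS control 2, therefore lay with or near the overexpression libraries. In the nSyb-Gal4 controls the share was 9.07, 9.63, 8.52, 9.19 and 4.66%, with library 5 the low member. Several gene groups below were ordered by library in much the same way as this share, so counts are also given from a fit with log2 of the share as a covariate, an alternative added after the values were seen. The share separates most overexpression libraries from most UAS control libraries, so that fit has less room to call any difference between the groups. What sets the share was not tested. The libraries were as labelled in tissue, with the neuronal marker elav at 99.4 to 125 CPM in overexpression heads and 70.0 to 121 CPM in UAS control heads, and photoreceptor, glial and fat body markers present in all of them.

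Of 10778 genes tested, 4157 (38.6%) were called at an adjusted p under 0.05, 1977 higher (18.3%) and 2180 lower (20.2%) in overexpression heads. These shares are the background for every gene list below. Most called changes were small, with a median absolute log2 fold change of 0.33, and the median over all tested genes was -0.012. Of the called genes, 318 were at least 2-fold higher and 130 at least 2-fold lower. With the mitochondrial share as covariate, 1491 genes (13.8%) were called, and 1378 of the genes called without it were called again in the same direction. Of the 448 genes changed at least 2-fold, 319 were called again.

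**Figure D2:**
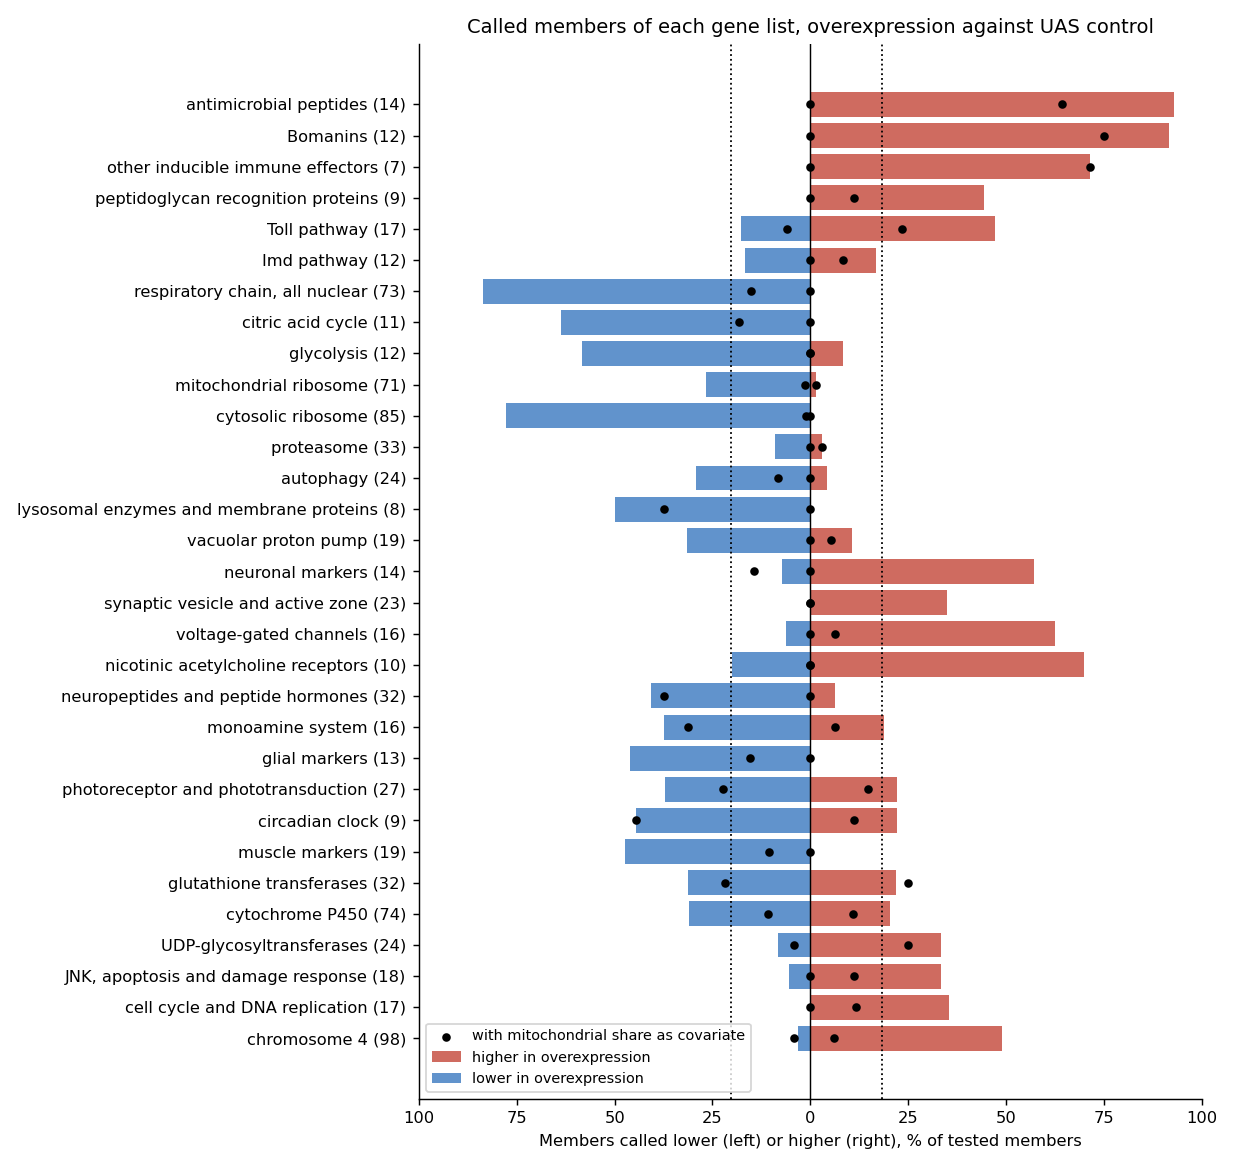
Share of the tested members of 31 gene groups (y axis, number tested in brackets) called higher (right) or lower (left) in overexpression heads, in percent (x axis). Dotted lines mark the shares over all tested genes, 18.3% higher and 20.2% lower, and black points mark the shares with the mitochondrial share as covariate. Immune effector lists reach far right and stay right of the line in both fits, whereas the cytosolic ribosome bar, far left, shrinks to 1 called member.

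Immune effector genes held the largest rises of the gene lists. Flies answer infection through the Imd and Toll pathways, in which peptidoglycan recognition proteins sense bacteria and NF-kappaB factors switch on antimicrobial peptides, largely in the fat body. Of 14 antimicrobial peptide genes tested, 13 were higher and none lower, with a median log2 fold change of 5.66. Of 12 Bomanins, short peptides induced by Toll, 11 were higher and none lower, with a median of 1.85. Of 7 other inducible effectors, 5 were higher and none lower. All 5 overexpression libraries lay above all 5 UAS control libraries for 0, 8 and 5 members of these 3 lists, against 8.98% of all tested genes. With the covariate, 9, 9 and 5 members of these 3 lists were called higher, where 6.74% of all tested genes were higher in that fit.

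The rise was uneven among the overexpression libraries. Summed over the antimicrobial peptides, CPM was 1933, 251, 61.8, 7886 and 3690.5 in overexpression libraries 1 to 5, against 75.8, 72.0, 60.2, 47.4 and 63.8 in UAS control libraries 1 to 5. Overexpression 4 was the highest, 5 and 1 followed, 2 was moderate, and 3 lay within the UAS control range. The nSyb-Gal4 controls had 61.5, 41.9, 51.0, 38.9 and 54.0 CPM. In the fits that left out 1 library, the number of antimicrobial peptides called higher stayed between 13 and 14.

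The cecropin CecA2, a membrane-active peptide, had 49.9, 7.98, 0.192, 200.1 and 100.4 CPM in overexpression heads, against 0.0410, 0.415, 0.140, 0.150 and 0.176 CPM in UAS control heads. Overexpression 3 lay inside the control range and the other 4 were above it (log2 fold change 8.60, SE 1.5, adjusted p = 0.000981). Its neighbour CecA1 had 42.4, 5.53, 0.153, 181 and 85.6 CPM in overexpression heads and 0.164, 0.706, 0.240, 0.10005 and 0.117 CPM in UAS control heads (log2 fold change 7.93, SE 1.5, adjusted p = 0.00144). The diptericin DptA, a readout of Imd signalling, had 176, 4.26, 0.940, 757 and 347 CPM in overexpression heads, against 2.60, 1.99, 0.300, 0.267 and 0.781 CPM in UAS control heads, with overexpression 3 again among the controls (log2 fold change 7.79, SE 1.6, adjusted p = 0.00239). The attacin AttC had 379, 9.69, 2.82, 1697 and 739 CPM in overexpression heads and 4.53, 4.52, 1.88, 0.817 and 1.64 CPM in UAS control heads (log2 fold change 7.74, SE 1.5, adjusted p = 0.00192). Closely related cecropin and attacin copies may share reads, so their separate levels are uncertain. Drosomycin (Drs), an antifungal readout of Toll, had a log2 fold change of 3.48 (adjusted p = 0.00147). Defensin (Def) was the exception, with a log2 fold change of 0.81 and an adjusted p of 0.109.

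Among the other effectors, edin, a secreted peptide gene induced by infection, had the largest change of all genes whose groups did not overlap. Its levels were 26.8, 0.590, 0.364, 141 and 56.3 CPM in overexpression heads, against 0.184, 0.104, 0.140, 0.0834 and 0.0391 CPM in UAS control heads (log2 fold change 8.67, SE 1.7, adjusted p = 0.00205). Overexpression 2 and 3 exceeded the controls by far less than the other 3 libraries did. The serine protease homologue SPH93 had 9.71, 5.42, 0.518, 38.7 and 6.51 CPM in overexpression heads, against 0.143, 0.166, 0.180, 0.250 and 0.176 CPM in UAS control heads, again without overlap (log2 fold change 6.03, SE 1.0, adjusted p = 0.000677). GNBP-like3 had 153, 68.5, 24.3, 345 and 169 CPM in overexpression heads and 13.2, 9.86, 11.8, 11.2 and 10.6 CPM in UAS control heads (log2 fold change 3.75, SE 0.56, adjusted p = 0.000322). Daisho 2 (Dso2), an antifungal peptide downstream of Toll, had 201, 140.3, 70.8, 323 and 178 CPM in overexpression heads and 40.9, 52.4, 59.0, 42.5 and 35.6 CPM in UAS control heads, so that even overexpression 3 lay above every control.

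Bomanins were likewise highest in overexpression 4 and lowest in overexpression 3, with a smaller range. BomT1 had 16.4, 10.2, 3.13, 56.3 and 15.6 CPM in overexpression heads, against 1.43, 2.08, 1.58, 1.15 and 1.82 CPM in UAS control heads (log2 fold change 3.67, SE 0.63, adjusted p = 0.000790), and BomS1 had 463, 305, 127, 711 and 376 CPM in overexpression heads, against 79.4, 81.4, 69.4, 71.9 and 71.9 CPM in UAS control heads (log2 fold change 2.41, SE 0.33, adjusted p = 0.000134). Neither gene overlapped between the groups. BomS6 was not called, at a log2 fold change of -0.47 and an adjusted p of 0.118.

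Receptors and signalling genes changed less than effectors. Of 9 peptidoglycan recognition proteins, 4 were higher and none lower, and 1 with the covariate. PGRP-SC2, an amidase that degrades peptidoglycan, had 3.54, 1.49, 0.211, 52.5 and 6.08 CPM in overexpression heads and 0.532, 0.726, 0.200, 0.283 and 0.371 CPM in UAS control heads (log2 fold change 4.94, SE 1.2, adjusted p = 0.00844), and with the covariate its adjusted p was 0.102. PGRP-SD, a secreted recognition protein, had 18.6, 17.9, 9.03, 40.7 and 30.5 CPM in overexpression heads and 5.65, 5.65, 3.96, 5.30 and 4.34 CPM in UAS control heads, without overlap (log2 fold change 2.23, SE 0.35, adjusted p = 0.000367). PGRP-LF, which dampens Imd signalling, also rose (log2 fold change 0.71, adjusted p = 0.00189).

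In the Toll list 8 of 17 genes were higher and 3 lower, 64.7% called against 38.6% of all tested genes. In the Imd list 2 of 12 were higher and 2 lower, 33.3% called, which is below the share of all tested genes. With the covariate 4 Toll genes were higher and 1 lower, and 1 Imd gene was higher. In that fit 6.74% of all tested genes were higher and 7.1% lower. Against the driver control 5 Toll genes were higher and 1 lower, and 1 Imd gene was higher, where 8.19% of all tested genes were higher. The Toll serpin nec had 309.5, 309.5, 227, 417 and 335 CPM in overexpression heads and 225, 219, 219, 218 and 190.2 CPM in UAS control heads (log2 fold change 0.58, SE 0.11, adjusted p = 0.000803). The Toll NF-kappaB factor Dif (log2 fold change 0.41, adjusted p = 0.000334) and its inhibitor cact (0.43, adjusted p = 0.00298) both rose without overlap between the groups. The protease gene Hayan rose by 1.20 on the log2 scale (adjusted p = 0.0151). Rel, the Imd NF-kappaB factor, had 186, 166, 113, 319 and 232 CPM in overexpression heads and 133, 158, 160.4, 126 and 112 CPM in UAS control heads. It passed narrowly (log2 fold change 0.56, SE 0.21, adjusted p = 0.0459), lost its call when any of 12 of the 15 libraries was left out, and had an adjusted p of 0.153 with the covariate.

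Immune effectors were also higher than in the nSyb-Gal4 controls. Antimicrobial peptides were higher for 13 of 14 (median log2 fold change 6.82) and Bomanins for 10 of 12 (median 1.83), and peptidoglycan recognition proteins for 6 of 9, where 8.19% of all tested genes were called higher. The stress peptide gene TotM went the other way, with 1.38, 0.743, 1.40, 0.627 and 3.39 CPM in overexpression heads and 6.78, 4.01, 5.68, 6.25 and 2.95 CPM in UAS control heads (log2 fold change -1.76, SE 0.38, adjusted p = 0.00286), and the thioester protein gene Tep2 was higher (0.81, adjusted p = 0.00276). Of 12 tested genes in their list of Turandots, Teps and JAK/STAT genes, 2 were higher and 1 lower. That is 25% called, against 38.6% of all tested genes. Blood cell and fat body markers were measured beside the immune effector lists, since both tissues make such peptides. Of 14 tested hemocyte markers 3 were higher (21.4%) and none lower, near the 18.3% of all tested genes that were higher. The scavenger receptor crq was higher by 0.18 and the low-count gene He by 1.502 on the log2 scale. With the covariate 1 hemocyte marker was higher, and against the driver control 1. The 14 markers summed to 1956 to 2984 CPM in overexpression heads and 2532 to 2926 CPM in UAS control heads, and 5 were higher without overexpression 4. The 11 fat body markers summed to 2965 to 5695 CPM in overexpression heads and 5175 to 6707 CPM in UAS control heads, with 5 of them higher and 2 lower and a median log2 fold change of 0.48. In the comparison with the driver control 1 was higher and 4 were lower, with a median of -0.54 and 6108 to 9613 CPM in the nSyb-Gal4 controls. In RNA of whole heads, a change in the number of cells of a type and a change in RNA per cell cannot be told apart, and the part of these cells in the immune rise was not tested.

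**Figure D3:**
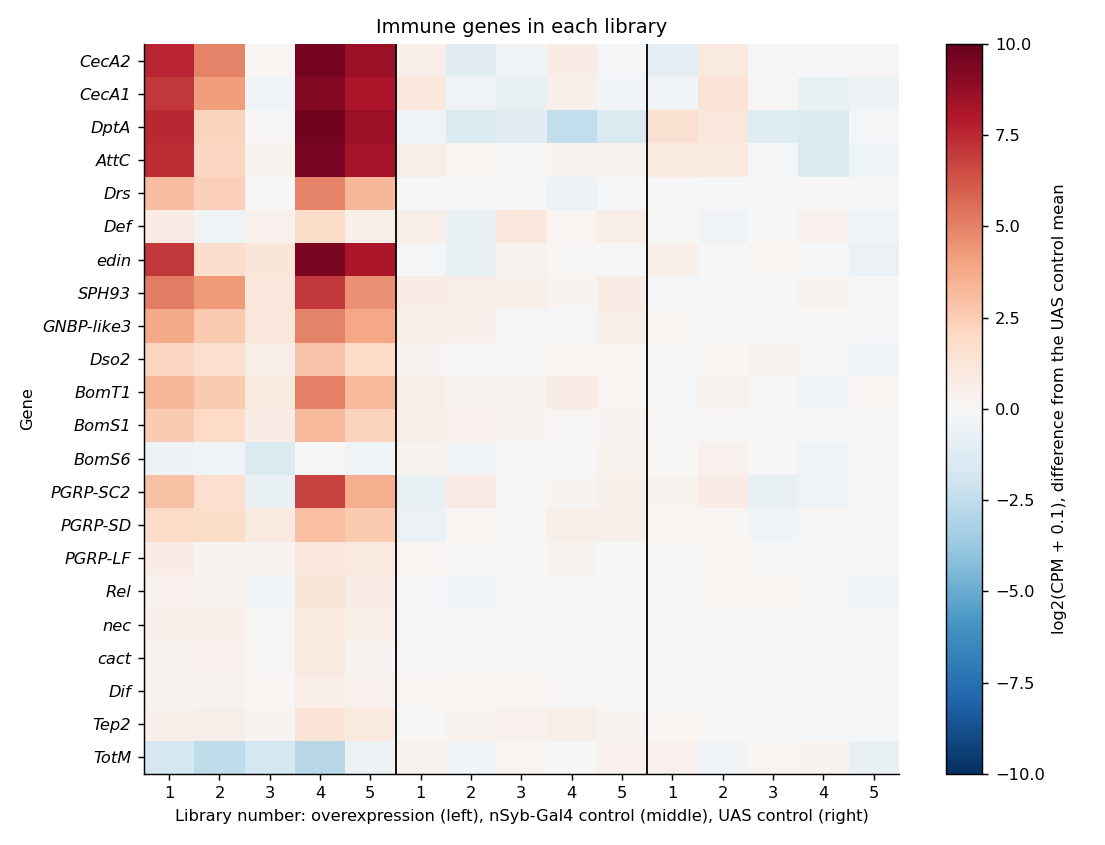
Level of 22 immune genes (y axis) in each library (x axis) as log2(CPM + 0.1) minus the UAS control mean, with red for higher and blue for lower. Overexpression 1, 4 and 5 carry the strongest red for the antimicrobial peptides and edin, overexpression 2 is paler and overexpression 3 is near the controls. TotM is below the UAS control mean in all 5 overexpression libraries, only slightly so in overexpression 5.

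Outside immunity, many genes of large change against the UAS control differed little or were not called against the nSyb-Gal4 controls. Tektin-C, of a family of cilium and flagellum microtubule proteins, had the smallest adjusted p of all genes. It had 57.3, 52.2, 57.0, 62.9 and 57.5 CPM in overexpression heads, against 2.07, 2.12, 2.40, 2.37 and 2.23 CPM in UAS control heads (log2 fold change 4.68, SE 0.066, adjusted p = 2.9e-18). The nSyb-Gal4 controls had 52.0, 48.5, 45.4, 49.8 and 46.4 CPM, all below every overexpression library, and the log2 fold change against them was 0.25 (adjusted p = 0.00368). Dnaaf3, an assembly factor of axonemal dynein, had 9.97, 8.64, 9.24, 9.91 and 8.11 CPM in overexpression heads and 0.676, 0.664, 0.540, 0.750 and 0.683 CPM in UAS control heads, with 8.60, 8.22, 8.25, 9.37 and 7.44 CPM in nSyb-Gal4 controls, against which it was not called (adjusted p = 0.295). The scavenger receptor ninaD, which takes up carotenoids for visual pigment, had 28.5, 33.4, 29.0, 27.7 and 29.2 CPM in overexpression heads and 6.76, 6.99, 6.5450, 5.95 and 5.72 CPM in UAS control heads, with 30.4, 39.0, 33.2, 32.7 and 35.5 CPM in nSyb-Gal4 controls (log2 fold change -0.21 against them, adjusted p = 0.0510).

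Of the 10 largest rises without overlap, 7 were not called against the nSyb-Gal4 controls. These were CG32650 (6.37 against the UAS control and 0.079 against the driver control), asRNA:CR45822 (6.27 and 0.15), sordd2 (5.88 and -0.0046), CG14406 (5.28 and -0.067), CR44383 (4.73 and 0.12) and the Y chromosome genes CR46150 and FDY, with 0.10 and -0.49 against the driver control. Levels of sordd2 were uneven in UAS control heads, at 0.0410, 0.0208, 3.42, 1.95 and 0.0391 CPM, all far below the 60.1 to 71.3 CPM of overexpression heads. In UAS control heads CR46150 was covered by 1 read and FDY by 9 reads over all 5 libraries, against 127 and 546 reads in overexpression heads. As ratios of pooled CPM, overexpression heads were 125-fold higher for CR46150 (95% counting interval 22.0 to 4963) and 59.6-fold higher for FDY (31.1 to 131). CG32650 had 304 reads in overexpression heads and 3 in UAS control heads, a ratio of 99.5 (33.7 to 485), and such intervals cover counting error only. The other 3 rises, edin, SPH93 and CG43968, differed from the driver control as well. CG43968 had 0.574, 0.634, 1.19, 0.511 and 0.575 CPM in overexpression heads and 0.0819, 0, 0, 0 and 0.0391 CPM in UAS control heads, and its log2 fold change against the nSyb-Gal4 control was 4.33 (adjusted p = 1.3e-05).

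Some genes were absent or very low in overexpression heads and present in the UAS controls. The long noncoding RNA lncRNA:CR46123 had no read in any overexpression library, against 0.471, 1.16, 0.420, 0.484 and 0.859 CPM in UAS control heads, which is at least 58.7-fold lower when 3 counts over the group are taken as the floor. CR11023 likewise had no read in overexpression heads and 0.246, 0.104, 0.320, 0.684 and 1.03 CPM in UAS control heads, at least 43.1-fold lower. In nSyb-Gal4 controls lncRNA:CR46123 was at 1.15, 0.356, 0.825, 0.720 and 0.666 CPM and CR11023 at 0.353, 0.166, 0, 0 and 0.516 CPM, so CR11023 was also without a read in libraries 3 and 4. hoka, a septate junction protein gene, had 0.158, 0.109, 0.115, 0.0989 and 0.111 CPM in overexpression heads, against 2.62, 3.34, 2.40, 2.17 and 2.48 CPM in UAS control heads (log2 fold change -4.43, SE 0.23, adjusted p = 4.0e-10), and 2.34, 3.52, 2.41, 4.05 and 3.43 CPM in nSyb-Gal4 controls. GILT3, of the lysosomal thiol reductase family, had 0.732, 1.44, 0.921, 1.37 and 0.890 CPM in overexpression heads, against 8.72, 8.41, 9.77, 10.4 and 7.69 CPM in UAS control heads (log2 fold change -3.07, SE 0.15, adjusted p = 3.1e-10), and 7.43, 7.60, 7.47, 7.07 and 9.22 CPM in nSyb-Gal4 controls. CG17404 and CG42822 were arranged like GILT3, with log2 fold changes of -2.93 and -3.40 against the UAS control and -3.10 and -3.32 against the driver control.

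For other large falls the driver control was also below the UAS control. CG15865 had 0.0396, 0, 0.0575, 0.0495 and 0.0185 CPM in overexpression heads, against 7.92, 7.10, 5.00, 7.30 and 5.53 CPM in UAS control heads, while the nSyb-Gal4 controls lay between, at 0.573, 0.736, 0.134, 0.360 and 0.466 CPM. The fatty acid elongase gene Elo68alpha (log2 fold change -2.93) and CG4839 (-2.70) were also low in the driver controls, as shown by log2 fold changes of 0.89 and -0.83 against them that were not called. The antisense RNA asRNA:CR45046 had log2 fold changes of -2.84 against the UAS control and -1.84 against the driver control, but its exons overlap those of 4 other genes. Of the 5 lower genes with the smallest adjusted p, the cytochrome P450 gene Cyp4s3 had 13.2, 12.9, 13.2, 11.9 and 11.7 CPM in overexpression heads and 30.3, 27.9, 27.1, 30.2 and 25.1 CPM in UAS control heads. The transporter gene MFS16 had 30.7, 32.0, 30.2, 30.8 and 29.5 CPM in overexpression heads and 51.2, 49.4, 52.0, 50.2 and 47.4 CPM in UAS control heads. Against the driver control neither was called, with adjusted p of 0.998 for Cyp4s3 and 0.307 for MFS16.

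**Figure D4:**
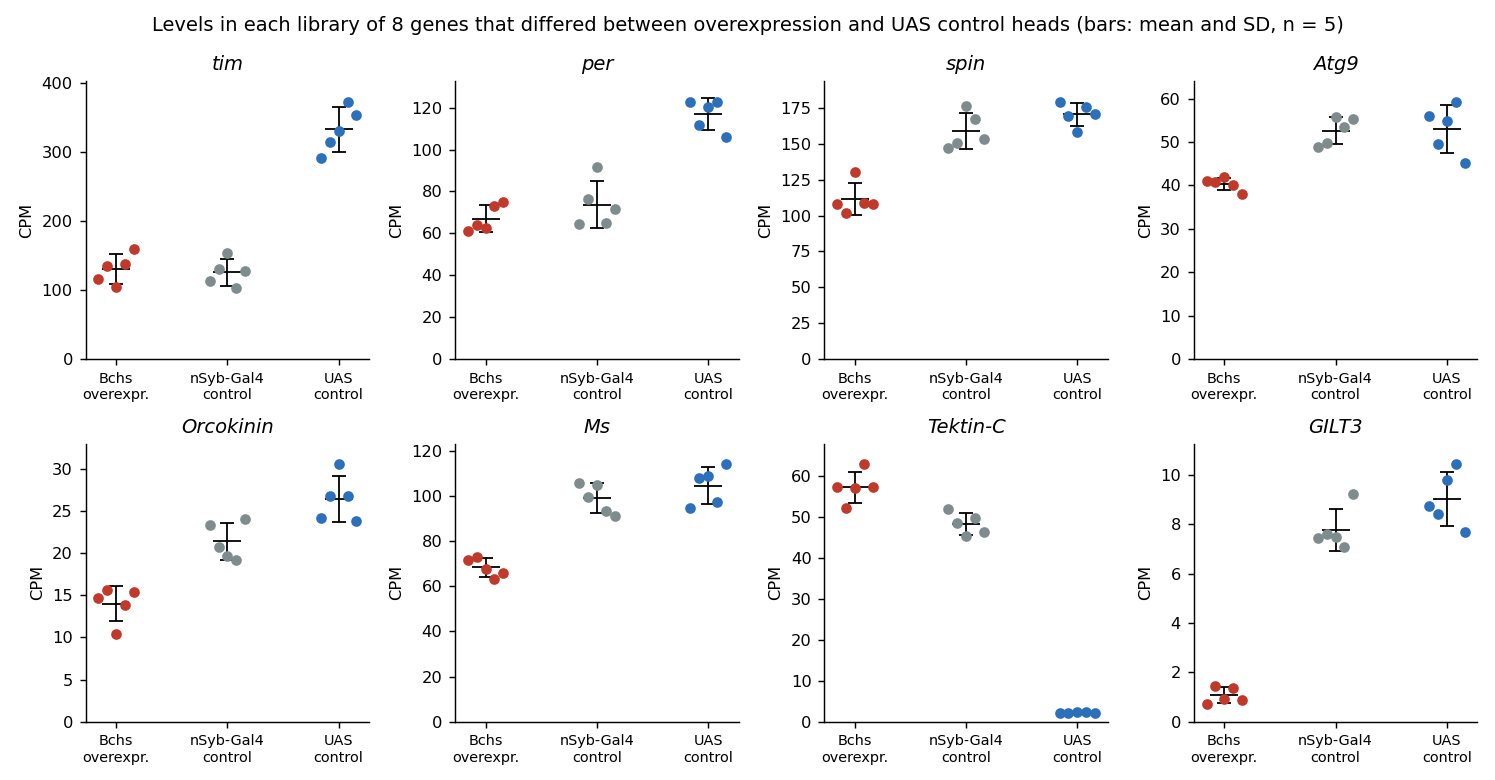
CPM (y axis) of 8 genes in each library of the 3 groups (x axis), with points for libraries and bars for the mean and SD of 5. For tim, per and Tektin-C the nSyb-Gal4 controls sit with or near the overexpression libraries, whereas for spin, Atg9, Orcokinin, Ms and GILT3 they sit with or near the UAS controls.

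Autophagy genes, the machinery in which Bchs acts, were called at a share near that of all tested genes. Of 24 tested, 7 were lower and 1 higher, 33.3% against 38.6%, with a median log2 fold change of -0.10. The lower members included the transmembrane scramblase Atg9, at 41.0, 40.9, 41.9, 40.1 and 38.1 CPM in overexpression heads and 56.1, 49.6, 55.0, 59.3 and 45.2 CPM in UAS control heads (log2 fold change -0.39, SE 0.065, adjusted p = 0.000218). The lipid transfer protein Atg2 had 78.0, 84.0, 83.2, 72.8 and 80.0 CPM in overexpression heads and 107, 95.4, 108, 114 and 90.2 CPM in UAS control heads (log2 fold change -0.37, SE 0.066, adjusted p = 0.000442). Neither overlapped between the groups. With the covariate, Atg9 (-0.21, adjusted p = 0.0225) and Atg2 (-0.23, adjusted p = 0.0429) were the only 2 autophagy genes called, both lower, where 7.1% of all tested genes were lower. Both were also lower than in nSyb-Gal4 controls, with log2 fold changes of -0.38 for Atg9 and -0.30 for Atg2. Without UAS control 5, 4 autophagy genes were called higher.

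The class III phosphoinositide 3-kinase Pi3K59F (log2 fold change -0.40, adjusted p = 0.000721) and its partner Vps15 (-0.27, adjusted p = 0.00137) were lower in the fit without the covariate, but had adjusted p of 0.0853 and 0.107 with it. Atg8a, the ubiquitin-like marker of autophagosomes, was not called (0.14, adjusted p = 0.159). Nor was ref(2)P, the fly p62 receptor that binds ubiquitinated cargo, at 306, 319, 295, 299.6 and 296 CPM in overexpression heads and 308, 339.7, 362, 333 and 306 CPM in UAS control heads (log2 fold change -0.12, SE 0.050, adjusted p = 0.0681). Among the BEACH relatives, rg, the neurobeachin counterpart, had 1.33, 4.09, 2.09, 1.52 and 2.56 CPM in overexpression heads and 0.799, 0.975, 1.24, 1.23 and 1.52 CPM in UAS control heads (log2 fold change 0.99, SE 0.28, adjusted p = 0.0118), and was not called against the driver control (log2 fold change 0.10, adjusted p = 0.884) or with the covariate (adjusted p = 0.159).

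Lysosomal genes were lower in 4 of 8 cases and higher in none, where 20.2% of all tested genes were lower. With the covariate 3 of the 8 were lower, not all of them among those 4, where 7.1% of all tested genes were lower. The lysosomal efflux transporter spin (spinster) had 108, 102, 131, 109 and 108 CPM in overexpression heads, against 179, 169, 158, 176 and 171 CPM in UAS control heads (log2 fold change -0.61, SE 0.069, adjusted p = 4.9e-06). All 5 overexpression libraries were below every UAS control and every one of the nSyb-Gal4 controls, which had 147, 151, 176, 168 and 153 CPM. Cathepsin L (CtsL1) had 667, 707, 657, 606 and 648 CPM in overexpression heads and 843, 823, 835, 855 and 786 CPM in UAS control heads (log2 fold change -0.33, SE 0.055, adjusted p = 0.000236), and kept its call with the covariate (adjusted p = 0.00970). The sterol-binding protein Npc2a (-0.37) and cathepsin D (-0.27) had groups that overlapped and adjusted p of 0.699 and 0.455 with the covariate. Proton pump subunits of the lysosome (2 higher and 6 lower of 19), endosomal sorting genes (6 lower of 17) and proteasome subunits (1 higher and 3 lower of 33) had log2 fold changes between -0.34 and 0.37. Endosomal genes called lower numbered 3 without overexpression 2, and proteasome genes called lower ranged between 0, without overexpression 1, and 7, without nSyb-Gal4 control 5.

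Nuclear genes of the respiratory chain were lower almost throughout. Over complexes I to IV, cytochrome c and ATP synthase, 61 of 73 tested genes were lower and none higher, with a median log2 fold change of -0.29. In 59 genes all 5 overexpression libraries were below all 5 UAS controls, where 13.8% of all tested genes were so arranged. Complex I, the largest, had 29 lower of 32 genes, and ATP synthase 12 of 14. With the covariate 11 of the 73 were called lower and none higher, against 7.1% lower over all genes. Against the nSyb-Gal4 control 35 were lower and none higher, against 8.34%. ATPsynO, a peripheral stalk subunit, had 373, 389.8, 355, 333 and 331 CPM in overexpression heads and 555, 489, 564, 579 and 436 CPM in UAS control heads (log2 fold change -0.56, SE 0.10, adjusted p = 0.000701).

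UAS control 5, the library with the highest mitochondrial share, was the lowest of its group for ATPsynO yet still above every overexpression library. The complex IV subunit gene cype had 208, 207, 199, 186 and 179 CPM in overexpression heads and 280.2, 249, 359.8, 311 and 239 CPM in UAS control heads (log2 fold change -0.56, SE 0.11, adjusted p = 0.00106). UQCR-C2 of complex III fell by 0.48 and kept its call with the covariate (adjusted p = 0.0377). SdhC of complex II fell by 0.44 on the log2 scale, and its adjusted p with the covariate was 0.105. The upstream pathways fell too, with 7 of 11 citric acid cycle genes lower, among them Mdh2 (-0.29), and 7 of 12 glycolysis genes lower and 1 higher, among the lower ones Gapdh1 (-0.41). Without overexpression 4, 4 glycolysis genes were lower. With the covariate 2 citric acid cycle and 0 glycolysis genes were called lower.

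Abundant transcripts of the mitochondrial genome had higher means in overexpression heads, but most were not called. mt:CoI, the catalytic subunit of complex IV, had 13775, 13357, 14869, 12188 and 13042 CPM in overexpression heads and 3516, 6955, 3460.0, 3388 and 15203 CPM in UAS control heads, with UAS control 5 above the others of its group (log2 fold change 1.05, SE 0.41, adjusted p = 0.0597). mt:ND5 was the 1 gene of 13 called higher, at 784, 746, 848, 455 and 738 CPM in overexpression heads and 146, 196, 159, 148 and 582 CPM in UAS control heads (log2 fold change 1.54, SE 0.46, adjusted p = 0.0202). Another 4, of low level, were lower, among them mt:ND2 (-1.84). Without UAS control 5, 9 of 13 were called higher, without UAS control 1 none was, and with the covariate, which is made from these transcripts, none was called.

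Cytosolic ribosomal protein genes were also lower in most cases in the fit without the covariate, with 66 of 85 lower, none higher, and a median log2 fold change of -0.27. RpS9 had 371, 364, 336, 351 and 338 CPM in overexpression heads and 625, 526, 606, 603 and 408 CPM in UAS control heads (log2 fold change -0.65, SE 0.13, adjusted p = 0.00101), and RpL22 had 354, 383, 346, 337 and 328 CPM in overexpression heads and 593, 511, 614, 601 and 380.0 CPM in UAS control heads (log2 fold change -0.63, SE 0.12, adjusted p = 0.000984). UAS control 5 was the lowest control for both genes. The nSyb-Gal4 controls also ran low, with RpS9 at 398, 361, 375, 425 and 581 CPM and library 5 the exception. With the covariate 1 ribosomal protein gene was called lower, and against the driver control 2. Leaving out 1 library gave between 44 lower genes, without UAS control 3, and 68. The part of the mitochondrial share in the fall was not tested. Among mitochondrial ribosomal protein genes 19 of 71 were lower, and 9 without UAS control 3.

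Genes of neuronal excitability were often higher in overexpression heads, and their levels too were ordered by library much as the mitochondrial share was. Of 14 neuronal markers 8 were higher and 1 lower, and 4 were higher without UAS control 1. Of 16 voltage-gated channel genes 10 were higher and 1 lower (median log2 fold change 0.41), of 10 nicotinic acetylcholine receptor subunits 7 were higher and 2 lower (median 0.55), and of 23 synaptic vesicle and active zone genes 8 were higher and 0 lower. The sodium channel para had 223, 310.1, 239, 167 and 239 CPM in overexpression heads and 124, 175, 141, 116 and 213 CPM in UAS control heads (log2 fold change 0.62, SE 0.19, adjusted p = 0.0187). The vesicular acetylcholine transporter VAChT had 222, 241, 234, 192 and 226 CPM in overexpression heads and 118, 168, 127, 109 and 220.0 CPM in UAS control heads (log2 fold change 0.59, SE 0.17, adjusted p = 0.0163). In both genes UAS control 5 lay in or near the overexpression range, and the groups overlapped.

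The t-SNARE Snap25 repeated this, with 377, 378, 389, 348 and 351 CPM in overexpression heads and 191, 263, 178, 186 and 387 CPM in UAS control heads (log2 fold change 0.61, SE 0.20, adjusted p = 0.0295). In nSyb-Gal4 controls it had 356, 374, 389.7, 368 and 218 CPM, with library 5, the one of low mitochondrial share, the lowest. Other members called higher were the potassium channel Sh (0.65), the calcium channel cac (0.53), the receptor subunit nAChRalpha1 (0.66), the GABA receptor Rdl (0.64), the complexin cpx (0.55) and the RNA-binding proteins fne (0.55) and elav (0.45). Snap25, cpx and elav lost their calls without overexpression 3 or without UAS control 1, 3 or 4, and nAChRalpha1 without UAS control 1. With the covariate none of these 7 was called, with log2 fold changes of -0.013 for cpx and 0.012 for elav. nAChRbeta3 was called lower (-0.39, adjusted p = 0.00742), and the active zone scaffold brp was not called (0.19, adjusted p = 0.127).

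The potassium channel eag was the 1 channel gene also called with the covariate. It had 124, 132, 128, 111 and 127 CPM in overexpression heads, against 57.3, 75.1, 53.1, 54.9 and 88.8 CPM in UAS control heads, so the groups did not overlap even with UAS control 5 (log2 fold change 0.92, SE 0.13, adjusted p = 7.4e-05). Its log2 fold change in that fit was smaller (0.52, adjusted p = 3.4e-05). The nSyb-Gal4 controls had 119.9, 131, 111, 120.2 and 94.4 CPM, and the log2 fold change against them was 0.11 (adjusted p = 0.653). Over the lists, covariate calls were 0 of 14 neuronal markers higher and 2 lower, and 1 of 16 channels, 0 of 10 receptors and 0 of 23 synaptic genes higher. No member of these 4 lists was called higher against the driver control, and 1 synaptic gene was lower. Without the covariate and without UAS control 5 the channel, receptor and synaptic genes called higher numbered 11, 7 and 17. Without UAS control 1 instead, 1 synaptic gene and 3 receptor genes were called higher. The part of the mitochondrial share in these rises was not tested.

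Chromosome 4, a small and largely heterochromatic chromosome, was arranged by library like the neuronal lists. Of its 98 tested genes 48 (49.0%) were higher and 3 lower, whereas on the 5 large arms 16.5 to 20.2% of genes were higher. Relative to the UAS control mean, the mean log2 level of the chromosome 4 genes was 0.38, 0.39, 0.43, 0.32 and 0.35 in overexpression libraries 1 to 5, against -0.059, 0.16, -0.22, -0.23 and 0.35 in UAS control libraries 1 to 5. UAS control 5 was at the overexpression level. With the covariate 6 genes were higher and 4 lower. Against the driver control 5 were higher and 3 lower, with a median log2 fold change of 0.019, where the median against the UAS control was 0.33. Without UAS control 5, 76 were higher, and without UAS control 1, 26, in fits where 2582 and 1524 of all tested genes were higher.

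**Figure D5:**
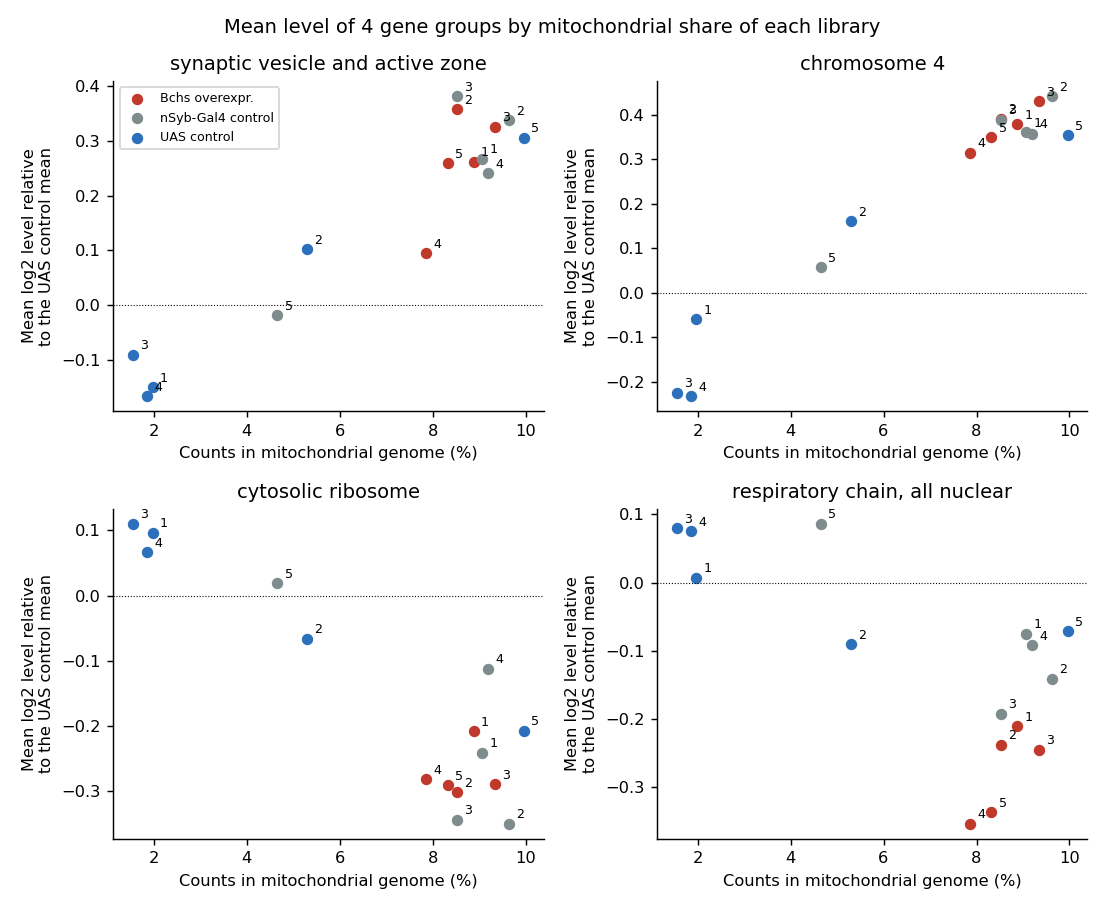
Mean log2 level relative to the UAS control mean (y axis) of synaptic genes, chromosome 4 genes, cytosolic ribosomal protein genes and nuclear respiratory chain genes in each of 15 libraries, by the percent of counts in the mitochondrial genome (x axis). UAS control 5 sits among the overexpression libraries for synaptic and chromosome 4 genes and at their upper edge for ribosomal protein genes, and in the respiratory chain panel the overexpression libraries are the lowest 5.

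Some peptide hormone genes fell, and most did not pass the test. Of 32 tested 13 were lower and 2 higher, and with the covariate 12 were lower and none higher, against 7.1% lower over all genes. Orcokinin had 14.7, 15.7, 10.5, 13.9 and 15.4 CPM in overexpression heads, against 24.2, 26.8, 30.5, 26.8 and 23.8 CPM in UAS control heads (log2 fold change -0.91, SE 0.10, adjusted p = 6.1e-06). The myosuppressin gene Ms, whose peptide slows visceral muscle, had 71.8, 73.1, 67.5, 63.4 and 66.0 CPM in overexpression heads, against 94.9, 108, 109, 97.3 and 114 CPM in UAS control heads (log2 fold change -0.61, SE 0.063, adjusted p = 1.8e-06). Groups did not overlap for either gene, and in nSyb-Gal4 controls Ms had 106, 99.7, 105, 93.5 and 91.1 CPM.

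The insulin-like peptide Ilp2, made by median neurosecretory cells, had 34.7, 32.8, 35.2, 32.8 and 32.7 CPM in overexpression heads and 52.4, 49.5, 53.6, 54.7 and 43.0 CPM in UAS control heads (log2 fold change -0.59, SE 0.080, adjusted p = 3.7e-05). Drosulfakinin (Dsk), a satiety peptide of the cholecystokinin family, fell by 0.62 (adjusted p = 1.2e-05) and the myoinhibitory peptide Mip fell by 0.48 (adjusted p = 3.7e-06). Pdf, the output peptide of clock neurons, had 30.6, 30.1, 30.5, 29.2 and 29.6 CPM in overexpression heads and 40.8, 44.3, 45.7, 41.4 and 40.6 CPM in UAS control heads (log2 fold change -0.51, SE 0.047, adjusted p = 6.4e-07). Against the nSyb-Gal4 control the log2 fold changes were -0.61 for Orcokinin, -0.53 for Ms, -0.38 for Ilp2 and -0.44 for Pdf, all called. Monoamine genes were lower in 6 and higher in 3 of 16, where 20.2% of all tested genes were lower and 18.3% higher. Their log2 fold changes ran from -0.59 to 0.60. The serotonin genes Trhn, the neuronal tryptophan hydroxylase (-0.59), and SerT, the transporter (-0.34), and the octopamine enzyme Tbh (-0.27) were lower in both fits, but against the driver control Trhn (adjusted p = 0.0650) and SerT (adjusted p = 0.408) were not called. Without UAS control 5, 6 monoamine genes and 4 peptide genes were higher.

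The clock genes tim, vri and per were lower in overexpression heads than in UAS control heads, but not called against the driver controls. In the fly clock, per and tim proteins repress their own transcription by Clk and cyc, and vri represses Clk. The gene tim had 117, 135, 104.47, 137 and 159 CPM in overexpression heads, against 291, 315, 331, 373 and 354 CPM in UAS control heads (log2 fold change -1.35, SE 0.12, adjusted p = 4.4e-07), and 114, 130.4, 154, 102 and 127 CPM in nSyb-Gal4 controls. vri had 75.4, 82.6, 62.5, 93.7 and 85.5 CPM in overexpression heads, against 162, 157, 187, 159 and 165 CPM in UAS control heads (log2 fold change -1.05, SE 0.15, adjusted p = 0.000119), and per fell by 0.80 (adjusted p = 5.6e-06). Against the driver control these 3 had log2 fold changes of 0.056, 0.053 and -0.14, none called. Clk was higher (0.48, adjusted p = 0.00861), without a call under the covariate. The labels give no hour of collection, so genotype and hour cannot be told apart.

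Visual genes were mixed, with 6 higher and 10 lower of 27. The rhodopsins of inner photoreceptor R8 were lower than in UAS control heads in both fits. Rh6 had 221, 225, 210.0, 228 and 229 CPM in overexpression heads and 374, 349.9, 388, 399 and 331 CPM in UAS control heads (log2 fold change -0.73, SE 0.067, adjusted p = 4.9e-07), and Rh5 fell by 0.51 (adjusted p = 2.7e-06). Set against the nSyb-Gal4 controls, Rh6 had a log2 fold change of -0.25 (adjusted p = 0.0135) and Rh5 of 0.12 (adjusted p = 0.137). The carotenoid oxygenase ninaB (-0.58) and the scavenger receptor santa-maria (-0.56) were lower than in UAS control heads, while ninaD of the same pathway was higher, as given above. Against the driver control ninaB was not called (-0.17, adjusted p = 0.0733) and santa-maria was higher (0.18, adjusted p = 0.0312). The pigment transporter bw, partner of w, had 36.5, 38.7, 39.1, 37.2 and 38.0 CPM in overexpression heads and 65.8, 54.9, 59.8, 63.0 and 52.6 CPM in UAS control heads (log2 fold change -0.64, SE 0.062, adjusted p = 9.1e-07), with a log2 fold change of -0.62 against the driver control.

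Some stress and death genes rose. Of 18 JNK, apoptosis and damage genes 6 were higher and 1 lower, and 2 were higher with the covariate. The share of this list that was called, 38.9%, was near the 38.6% of all tested genes. Gadd45, a stress gene upstream of the p38 and JNK kinases, had 24.9, 19.9, 15.1, 50.6 and 28.5 CPM in overexpression heads, against 6.55, 6.41, 9.07, 9.14 and 6.97 CPM in UAS control heads (log2 fold change 1.87, SE 0.27, adjusted p = 0.000180), and overexpression 4, the library with the highest antimicrobial peptides, was also the highest here. Dronc, the initiator caspase, had 17.6, 25.1, 15.3, 23.0 and 18.6 CPM in overexpression heads and 12.6, 10.9, 12.8, 11.9 and 12.8 CPM in UAS control heads (log2 fold change 0.71, SE 0.10, adjusted p = 9.1e-05). Both remained called with the covariate and were higher than the driver control, by 1.22 and 0.51 on the log2 scale. The cell death genes rpr (0.69) and hid (0.62) were higher, with adjusted p of 0.254 and 0.556 with the covariate. Unfolded protein and integrated stress response genes were higher in 4 and lower in 1 of 10, 50% called against 38.6% of all tested genes. With the covariate 1 was higher and 0 lower, and against the driver control 3 were higher and 2 lower. Without UAS control 3, 1 was higher. In the endoplasmic reticulum, the chaperones Hsc70-3, or BiP (0.38, adjusted p = 0.000398), and Gp93 (0.27, adjusted p = 0.0196) were higher and the stress kinase PEK lower (-0.15). Gp93 lost its call without overexpression 4 or without UAS control 3. Cytosolic heat shock genes showed 2 higher and 6 lower of 21, with Hsc70-1 among the lower ones (-0.56). Their share called, 38.1%, was also near that of all tested genes. Without overexpression 1, 3 heat shock genes were lower.

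Detoxification families changed in both directions, as tested genes did in general (18.3% higher and 20.2% lower). Of 74 cytochrome P450 genes 15 were higher and 23 lower, of 32 glutathione transferases 7 were higher and 10 lower, and of 24 UDP-glycosyltransferases 8 were higher and 2 lower. The shares called were 51.4, 53.1 and 41.7%, against 38.6% of all tested genes. With the covariate, 8, 8 and 6 were higher and 8, 7 and 1 lower, against 6.74% higher and 7.1% lower over all genes. Cyp6d2 had 8.11, 10.7, 7.54, 9.69 and 11.1 CPM in overexpression heads, against 1.82, 1.58, 1.84, 1.35 and 1.76 CPM in UAS control heads (log2 fold change 2.50, SE 0.28, adjusted p = 1.2e-05). Cyp4e3 was uneven within its group, with 58.6, 355, 55.7, 138 and 155 CPM in overexpression heads and 46.4, 48.0, 39.2, 38.9 and 42.0 CPM in UAS control heads (log2 fold change 1.83, SE 0.42, adjusted p = 0.00528), and overexpression 2, not 4, was its highest library. Both were higher than in the driver control, by 1.72 and 1.91 on the log2 scale.

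Some other members were called against the UAS control and not against the driver control. Ugt49C1 had 77.8, 91.1, 82.5, 87.7 and 88.7 CPM in overexpression heads and 29.0, 29.4, 27.3, 27.1 and 23.2 CPM in UAS control heads (log2 fold change 1.65, SE 0.073, adjusted p = 7.3e-11), with 75.8, 83.8, 76.2, 93.8 and 87.8 CPM in nSyb-Gal4 controls (log2 fold change 0.035 against them, adjusted p = 0.826). Cyp28a5 (1.74), Ugt35E1 (2.40), GstZ2 (0.74) and GstE4 (-0.80) were arranged in this way too, although Cyp28a5 (0.33 against the driver control, adjusted p = 0.129) had no overlap with the driver controls either. In contrast, Cyp4e1 was higher than the UAS control by 1.80 and the driver control by 0.58. GstD6, of low level, had 0.0989, 0.109, 0.0959, 0.0824 and 0.130 CPM in overexpression heads and 0.410, 0.374, 0.480, 0.417 and 0.215 CPM in UAS control heads (log2 fold change -1.86, SE 0.27, adjusted p = 6.6e-05). It was lower than the driver control too (log2 fold change -2.19, adjusted p = 2.1e-05). Gclm, the modifier subunit of the glutathione-making ligase, fell by 0.66 (adjusted p = 1.2e-05).

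Markers of other cell types in the head were also counted. Glial markers were lower in 6 of 13 (46.2%) and higher in none, where 20.2% of all tested genes were lower. The lower ones included the glial transcription factor repo (-0.30, adjusted p = 0.000607) and the citrate transporter Indy (-0.41, adjusted p = 0.000206). With the covariate 2 glial markers were lower, where 7.1% of all tested genes were. Muscle markers were lower in 9 of 19 (47.4%) and higher in none, with myosin heavy chain Mhc at -0.40 and the flight muscle actin Act88F at -0.81. With the covariate 2 muscle markers were lower. Against the driver control 13 were lower, where 8.34% of all tested genes were, with Mhc among them (-0.45) but not Act88F (0.14, adjusted p = 0.617). Fat body markers split, as counted above. The fat body gene fit had 20.8, 11.7, 54.0, 21.4 and 24.3 CPM in overexpression heads and 177, 86.6, 132, 138 and 90.7 CPM in UAS control heads (log2 fold change -2.24, SE 0.47, adjusted p = 0.00302), while Fbp1 (2.48) and the larval serum protein Lsp1alpha (2.73), both of low level, were higher and were not called against the driver control (log2 fold changes 0.34 and -0.54).

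The yolk protein gene Yp2, made by fat body in females, had 6678, 6153, 11387, 4484 and 7539 CPM in overexpression heads and 19162, 10525, 13068, 15173 and 9283 CPM in UAS control heads (log2 fold change -0.89, SE 0.25, adjusted p = 0.0129), and with the covariate its adjusted p was 0.378. Sex-biased genes (Yp1, Yp2, Yp3, roX1, roX2 and msl-2) were higher in 1 and lower in 3 of 6. That is 66.7% called, against 38.6% of all tested genes. With the covariate 0 were called, and against the driver control 1 was lower and 0 higher. The share of females and males per sample is not given. Genes of the cell cycle were higher in 6 of 17 and lower in none, and 2 were higher with the covariate. The kinesin gene ncd had 32.0, 33.0, 32.5, 33.5 and 31.8 CPM in overexpression heads and 20.9, 20.3, 18.3, 22.6 and 20.4 CPM in UAS control heads (log2 fold change 0.67, SE 0.051, adjusted p = 5.2e-08), and 3.35, 3.35, 3.63, 3.26 and 3.61 CPM in nSyb-Gal4 controls. CycB, at 0.633, 0.962, 0.997, 0.824 and 1.09 CPM in overexpression heads and 0.184, 0.374, 0.280, 0.400 and 0.371 CPM in UAS control heads, was higher by 1.47. The replication genes PCNA (0.61) and Mcm7 (0.51) were higher than the UAS control, and higher than the driver control by 0.91 and 0.80.

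Odorant-binding proteins showed 8 higher and 9 lower of 34, 50% called against 38.6% of all tested genes. Obp99a had 17.0, 71.7, 55.9, 25.9 and 54.0 CPM in overexpression heads and 196, 133, 177, 154 and 95.7 CPM in UAS control heads (log2 fold change -1.75, SE 0.35, adjusted p = 0.00190), and 35.6, 50.5, 38.9, 45.0 and 58.9 CPM in nSyb-Gal4 controls. Obp19b had 31.3, 31.7, 24.9, 30.4 and 29.5 CPM in overexpression heads and 12.4, 13.4, 13.5, 14.3 and 11.3 CPM in UAS control heads (log2 fold change 1.19, SE 0.090, adjusted p = 5.1e-08). Cuticle proteins of the Cpr family were higher in 10 and lower in 9 of 39, 48.7% called. Cpr92F fell by 1.41 against the UAS control (adjusted p = 2.6e-08) with -0.0086 against the driver control. Among the 83 odorant, gustatory and ionotropic receptor genes that passed the filter on low counts, 6 were higher and 9 lower (18.1% called).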

How the data were processed

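RNA-seq libraries of adult heads were compared as the authors deposited them, as raw read counts per gene and library. Reads were aligned with STAR to BDGP6 and counted with HTSeq, per the submitters' processing notes, and the labels' protocols name an RNeasy Micro extraction and a TruSeq RNA v2 kit. Versions, the annotation release and the strand setting are not given in the sources used here, so reads of genes with overlapping exons (41 of the 137 genes named) cannot be told apart. Rows for reads outside genes held 9.02 to 10.5% of reads and were left out. Depth limits the precision of genes with few reads, and 95% counting intervals cover counting error only.

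The 15 libraries of the neuron dataset in 3 groups were fitted together with edgeR 4.0.16 (R 4.3.3, filterByExpr, TMM, robust quasi-likelihood F test), adjusted by Benjamini-Hochberg over 10778 genes and called at 0.05. The method was tested on simulated data. The simulation drew each gene independently, so it does not cover shifts shared by many genes within a library, as with the mitochondrial share. CPM uses the TMM-scaled library size, and the SE is the log2 fold change divided by the root of F. Alternatives used DESeq2 1.42.0 and the settings in the closing section. Nothing in the labels says that libraries came from separate cultures or sets of flies, so p-values measure the spread between these samples, which may be technical. Gene names came from a table matched to the gene IDs (17625 of 17753 rows). The genes named are bchs, w and nSyb, the 10 largest rises and falls with a mean of at least 10 counts and no overlap between groups, the 5 smallest adjusted p in each direction, and up to 4 called members of each list, plus members that were not called. Members and the 54 gene lists were chosen with earlier results of these data known. Same-numbered libraries were not treated as pairs.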

Additional observations from a re-analysis of the deposited data

Results flagged for a closer look

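In each group of 5 libraries, a library was listed when its gap to the nearest other library exceeded 0.71 of the group's range, Dixon's 95% critical value. Of 277 groups examined 21 were listed, where chance lists about 1 in 20, and no explanation was weighed.

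Overexpression 4, the library with the highest summed antimicrobial peptides, was listed for 5 genes. SPH93 was 38.7 CPM there, against 0.518 to 9.71 in the other overexpression libraries. BomT1 was 56.3 CPM, against 3.13 to 16.4 in the others of its group. PGRP-SC2 was 52.5 CPM, against 0.211 to 6.08. The cell death gene rpr was 6.41 CPM, against 3.13 to 3.58. The mitochondrial transcript mt:ND5 was low, at 455 CPM, against 738 to 848. Overexpression 3 was the high library for CG43968 at 1.19 CPM, for spin at 131 CPM and for He at 1.02 CPM. Overexpression 1 was high for hoka at 0.158 CPM, overexpression 2 for ninaD at 33.4 CPM and overexpression 5 for TotM at 3.39 CPM.

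Among the UAS controls, library 5 was high for mt:ND5 at 582 CPM, against 146 to 196 in the others, and for w at 6.17 CPM, and low for nec at 190.2 CPM. UAS control 2 was high for CecA1 at 0.706 CPM, for PGRP-LF at 13.3 CPM and for Cyp4e1 at 2.12 CPM. UAS control 3 was high for CR44383 at 0.220 CPM and for vri at 187 CPM, and UAS control 1 held the single CR46150 read of its group, at 0.0205 CPM. In the nSyb-Gal4 controls, library 5 had 4.66% of its counts in the mitochondrial genome, against 8.52 to 9.63% in the other 4.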

How the results depend on the processing

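The number of genes called in overexpression against UAS control heads, 4157, was within 1.5 times of this under DESeq2's size factors in edgeR (4141), no filter on low counts (3976), the 10 libraries alone (4095), DESeq2 (4421), the replicate block (3729), leaving out UAS control 5 and nSyb-Gal4 control 5 together (5116) and removing mitochondrial genes (4159). It was 628 (389 higher, 239 lower) with all 30 libraries of both datasets in the fit, 1491 with the mitochondrial share as covariate, 1326 (702 higher, 624 lower) with that covariate and the replicate block, 1029 (649 higher, 380 lower) with a minimum fold of 1.5, and 2391 at an adjusted p under 0.01. Leaving out 1 library gave 3274, without UAS control 4, to 4856, without UAS control 5. Deviations of same-numbered libraries correlated at -0.069 to -0.013 between overexpression and UAS control, 0.028 to 0.245 between overexpression and nSyb-Gal4 control, and -0.457 to 0.099 between nSyb-Gal4 control and UAS control, and 0 of 5 overexpression libraries correlated best with the UAS control of their own number.

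Of 131 called genes named in the text, 123 kept their call in all 15 fits without 1 library, and 77 kept it with all 30 libraries. With the covariate 83 kept it, and cpx changed sign, to -0.013 on the log2 scale. With the covariate and the replicate block, cpx was -0.037 and Snap25 -0.038. The cause was not tested. Genes of few reads, such as lncRNA:CR46123 or CR46150, are limited by counting.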
